A study of Mus musculus with 18 samples.

Results

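The mitochondrial genome transcripts described here are the 37 genes whose symbol starts with mt- in a table of 43346 genes, namely 2 rRNA genes, 13 protein genes and 22 tRNA genes. They were chosen by name alone. RNA was sequenced from 18 libraries of EPCAM-positive crypt cells of untreated C57BL/6 mice with the *Lgr5-eGFP-IRES-CreERT2* allele, aged 8 to 20 weeks by the labels. This allele places GFP and a tamoxifen-inducible Cre under the *Lgr5* locus, and all groups carry it. Cells with high, medium or low GFP stand for centre, border and row >3 Lgr5+ cells, taken from the small intestine (SI) and the large intestine (LI), with 3 replicates in each of 6 groups. No source used here names the mouse behind each library, so p-values measure the spread between these libraries. The comparisons ask whether the position of Lgr5+ cells, or the intestinal site, goes with a different level of mitochondrial transcripts. In bulk RNA, fewer cells of a type and less RNA per cell cannot be told apart.

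Mitochondria keep a small circular genome that is transcribed from both strands into long precursors. Most genes are read from the heavy strand promoter, tRNAs lie between the rRNA and protein genes, and their excision releases the mature RNAs. The protein genes encode subunits of the respiratory chain and of ATP synthase, the rRNAs build the mitochondrial ribosome, and every factor that copies, transcribes and processes this genome comes from the nucleus. Oxidative metabolism of crypt stem cells and their progeny has been tied to renewal and differentiation in the intestine.

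Totals lay between 8312093 and 31940965 counts per library. The SI libraries of replicate 3 stood apart from the other SI libraries. A set of 51 genes had at least 20 CPM (counts scaled to a library total of 1000000) in every LI centre library and a mean there that was 20 or more times as high as in SI centre replicate 1. Their median level in SI replicate 3 was 60.7% of the LI centre level in centre, 86% in border and 104% in the row >3 cells, and it was 0.835% to 5.23% in the other SI libraries, which include the library that chose them. A set of 33 genes had at least 20 CPM in SI centre replicates 1 and 2 and at least 20 times the level of every LI centre library. Their median level in SI replicate 3 was 25.2%, 11.1% and 6.09% of that in those 2 libraries, in centre, border and row >3 cells. In SI replicates 1 and 2 it was 63.8% and 93.4% in border and 54.6% and 70.4% in row >3 cells, so it was lower outside the centre there too. Whether the SI libraries of replicate 3 hold cells of the LI or carry a wrong label was not tested, and they are named here as the labels give them. This doubt touches every SI value from all libraries, and values without replicate 3 are given beside many of them. All 6 epithelial markers were found in every library. Paneth cell markers summed to between 1938 and 8580 CPM in SI replicates 1 and 2, to between 176 and 1741 CPM in SI replicate 3, and to at most 12.03 CPM in the LI. Immune, stromal and erythrocyte markers summed to at most 73.5, 18.1 and 0.42 CPM.

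The sequences below belong to the genes on which the results turn. The tRNA genes mt-Ty and mt-Tp took most tRNA counts, mt-Ta passed the test between the sites, mt-Tt passed it without SI replicate 3, and mt-Ts2 had 0 counts in all 18 libraries. They are from the GENCODE M21 transcripts on mm10, written 5′ to 3′ on the strand of the gene. Capitals mark the anticodon, found as the only match to the anticodon triplet after T and before A or G within bases 20 to 40. None was set for mt-Ts2.
mt-Ty, chrM:5260-5326 (-): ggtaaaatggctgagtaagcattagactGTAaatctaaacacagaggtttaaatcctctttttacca
mt-Tp, chrM:15356-15422 (-): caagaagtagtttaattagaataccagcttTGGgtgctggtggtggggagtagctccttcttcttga
mt-Ta, chrM:5018-5086 (-): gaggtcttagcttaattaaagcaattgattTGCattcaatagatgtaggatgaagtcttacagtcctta
mt-Tt, chrM:15289-15355 (+): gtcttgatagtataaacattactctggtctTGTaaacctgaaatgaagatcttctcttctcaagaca
mt-Ts2, chrM:11613-11671 (+): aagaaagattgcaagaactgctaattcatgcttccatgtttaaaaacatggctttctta

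The rRNA genes took by far the most counts. The large rRNA gene mt-Rnr2 (chrM:1094-2675) had a mean of 3028762 counts per library and the small rRNA gene mt-Rnr1 (chrM:70-1024) a mean of 1656932. Per length, mt-Rnr2 stood at 89422 CPM per kb and mt-Rnr1 at 80390 CPM per kb. The count of mt-Rnr2 was between 1.65 and 2.38 times that of mt-Rnr1, with the highest ratio in SI border replicate 1, the library of the lowest total.

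Among the protein genes, 7 were measured at high levels. mt-Co1, the catalytic core of complex IV, had a mean of 5128 CPM per kb and mt-Cytb, the cytochrome b of complex III, 4309 CPM per kb. The complex I genes mt-Nd1, mt-Nd5, mt-Nd2, mt-Nd6 and mt-Nd4 followed with 2287, 1564, 1160, 947 and 920 CPM per kb. Counted per 1000 windows without an exact nuclear copy, mt-Nd4 stood at 2525 CPM beside 2551 for mt-Nd1, 1654 for mt-Nd5, 1325 for mt-Nd2 and 1171 for mt-Nd6. The place of mt-Nd4 in this order thus differed between the measures. By the same measure mt-Nd3, mt-Co3, mt-Atp6 and mt-Co2, low over their whole length, stood at 4967, 4638, 2759 and 2559 CPM. The low gene mt-Nd4l stood at 260 CPM, but all of these rest on 1 to 6 windows each. The low gene mt-Atp8, in which no window had an exact nuclear copy, stood at only 10.4 CPM. These values are means over 18 libraries, and per kb the ranges of neighbours among the 7 genes overlapped between libraries. The order of mt-Co1 and mt-Cytb per kb turned with the library. Per kb, mt-Cytb was above mt-Co1 in every SI library of replicates 1 and 2. In all LI libraries and in SI replicate 3 mt-Co1 was above mt-Cytb. Per 1000 windows without an exact nuclear copy, the means were 7923 CPM for mt-Co1 and 4718 CPM for mt-Cytb, further apart than per kb. The turn of their order may thus depend on the measure, and it was not compared by library with this one. The other 6 genes stood far lower over their whole length. mt-Nd3 of complex I had 85.6 CPM per kb, and the ATP synthase genes mt-Atp6 and mt-Atp8 had 12.2 and 5.37 CPM per kb. mt-Co2 and mt-Co3 of complex IV had 11.2 and 5.92 CPM per kb, and mt-Nd4l of complex I had 2.63 CPM per kb. In counts, the means of mt-Nd3, mt-Atp6, mt-Co2, mt-Co3, mt-Atp8 and mt-Nd4l were 656, 177, 165, 100.1, 24.2 and 16.9 per library.

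The 6 low genes lie side by side, and a run of 7 pseudogenes on mouse chromosome 1 holds nuclear copies of 5 of them and of parts of mt-Co1 and mt-Nd4 (chr1:24611535-24616197, 4663 bases, minus strand). Of the windows of 100 bases, the read length, an exact copy in an annotated nuclear transcript was found for 99.5% in mt-Co2, 99.5% in mt-Atp6, 99.9% in mt-Co3, 97.6% in mt-Nd3 and 98.5% in mt-Nd4l. It was 60.8% in mt-Nd4, 30.8% in mt-Co1 and 3.20% in mt-Nd2, and 0 in mt-Rnr1, mt-Rnr2, mt-Nd1, mt-Nd5, mt-Nd6 and mt-Cytb. It was also 0 in mt-Atp8. The 233 bases between the pseudogenes Gm10925 and Gm28661, copies of its neighbours mt-Atp6 and mt-Co2, lie outside both and were not searched. The 7 pseudogenes themselves had few counts, with means that sum to 66.1 per library. How reads with several places in the genome were counted is not stated, and their part in the low counts was not tested.

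The start of mt-Atp6 and of its copy Gm10925, which had a mean of 20.6 counts, illustrates the shared sequence. The copies are identical over all 678 bases of Gm10925, of which 90 are shown.
mt-Atp6, chrM:7927-8016 (+): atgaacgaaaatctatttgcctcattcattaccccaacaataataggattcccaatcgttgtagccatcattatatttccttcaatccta
Gm10925, chr1:24614562-24614651 (-): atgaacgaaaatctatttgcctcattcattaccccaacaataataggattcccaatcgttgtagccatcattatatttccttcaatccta

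Another copy differs at single bases. Gm13340 on chromosome 2 holds all 1545 bases of mt-Co1 with 37 mismatches, and it had a mean of 73.7 counts. Within the 90 bases shown here the copy differs by T837C and T846C, counted from the start of mt-Co1, and capitals mark these bases.
mt-Co1, chrM:6100-6189 (+): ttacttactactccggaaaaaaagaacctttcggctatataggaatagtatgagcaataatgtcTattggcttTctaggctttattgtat
Gm13340, chr2:22588786-22588875 (-): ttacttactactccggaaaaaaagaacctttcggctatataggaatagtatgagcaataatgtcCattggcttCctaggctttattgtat

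Other nuclear genes with a shared stretch of at least 50 bases and a mean of at least 10 counts were Gm20594, with part of mt-Rnr2 and a mean of 1609 counts, Gm29216 with part of mt-Co1 and 21.4, Gm11407 with part of mt-Nd5 and 20.3, and Gm13341 with part of mt-Co2 and 15.3. Gm29216 and Gm13341 share stretches of at least 100 bases with the mitochondrial gene, so their counts are uncertain, while Gm20594 and Gm11407 share no stretch of that length. The search took exact matches only, so it does not make the counts of Gm20594 and Gm11407 certain. Whether they hold reads of mt-Rnr2 or mt-Nd5 was not tested.

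**Figure D1:**
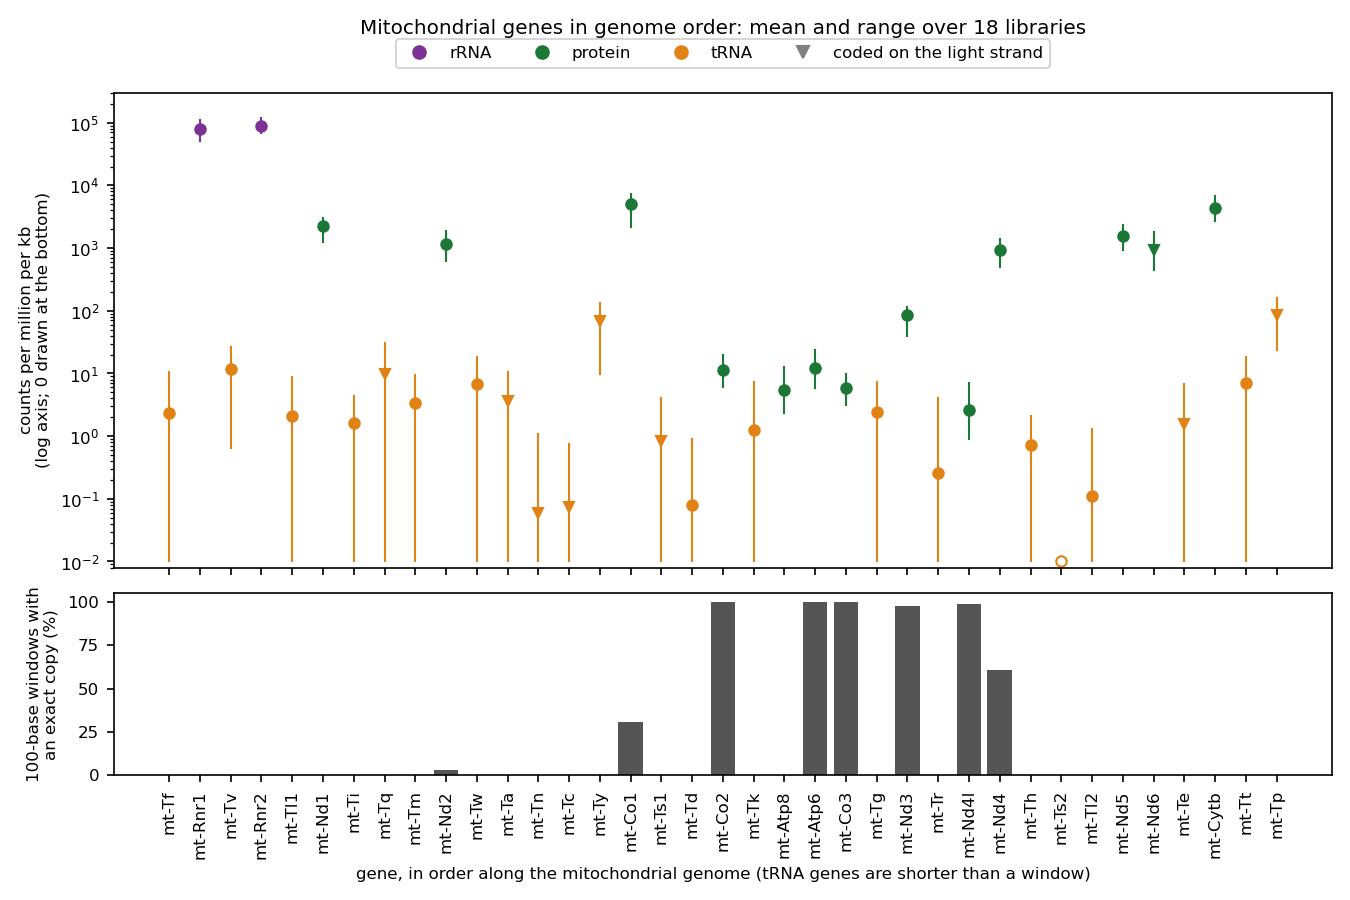
Upper panel: level of each of the 37 mitochondrial genes in CPM per kb, on a log axis, in the order of the genome, with the mean (symbol) and the range (line) over 18 libraries. Lower panel: percent of 100-base windows of the gene that occur exactly in an annotated nuclear transcript. The rRNA genes lie at 80390 and 89422, and of the 6 protein genes below 100 CPM per kb, 5 have copies in at least 97.6% of windows, while mt-Atp8 has none among annotated transcripts.

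The tRNA genes had 5524 counts in all 18 libraries together, between 55 and 666 per library. mt-Tp, the tRNA gene for proline, had a mean of 122 counts and mt-Ty, for tyrosine, a mean of 99.9, and together they took 72.5% of tRNA counts. mt-Tv, mt-Tq, mt-Tt and mt-Tw, for valine, glutamine, threonine and tryptophan, had means of 16.9, 15.8, 10.6 and 10.2 counts. The other 16 genes had means of at most 5.28 counts, of which 6 were under 1. The 8 tRNA genes on the light strand, which include mt-Tp and mt-Ty, took 80.6% of tRNA counts. A tRNA gene is 59 to 75 bases long, shorter than a read, and silica columns retain little RNA of this size. Whether the counts came from mature tRNAs or from longer precursors was not tested.

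Levels by class are given as shares of all counts of a library. Their counting error is small for the rRNA and protein genes, with 95% Wilson intervals within 0.154% and 0.629% of the share, and larger for tRNA genes, at 7.60% to 26.7% of the share. These intervals cover counting error only. Sums over a class of genes are described without a test.

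The rRNA genes took 15.99% to 29.5% of counts. In the SI, replicates 1, 2 and 3 had 18.9%, 18.5% and 29.5% in centre cells, then 16.2%, 18.1% and 27.6% in border cells, and finally 18.7%, 15.99% and 29.4% in row >3 cells. In the LI they had 18.99%, 24.6% and 23.2% in centre, 22.6%, 22.5% and 22.4% in border and 18.4%, 24.3% and 22.9% in the row >3 cells. The 3 SI libraries of replicate 3 were thus above all LI libraries, and the other 6 SI libraries, at 15.99% to 18.9%, overlapped only with the lowest LI library, at 18.4%. Against centre cells of the same number, the rRNA share was lower in 3 of 3 pairs in SI border, SI row >3 and LI row >3 cells, with log2 differences of -0.22 to -0.04, -0.21 to -0.009 and -0.04 to -0.02. This sign depends on the scaling, since with TMM factors both rRNA genes had values above 0 in SI row >3 and, at 0.06 for mt-Rnr1 and 0.09 for mt-Rnr2, in LI row >3 against centre cells. The log2 ratio of SI over LI means was 0.004, -0.12 and -0.04 in centre, border and row >3 cells, and -0.25, -0.39 and -0.34 when SI replicate 3 was left out. The group means were 22.3% ± 6.25 (SD, n = 3), 20.6% ± 6.11 and 21.3% ± 7.07 for SI centre, border and row >3, and 22.3% ± 2.93, 22.5% ± 0.0945 and 21.8% ± 3.06 for the LI groups.

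The protein genes stood well below the rRNA genes, with 8.94 to 14.1 rRNA counts per protein-gene count. In the SI, replicates 1, 2 and 3 had 1.86%, 1.62% and 3.00% in centre, 1.15%, 1.68% and 2.61% in border and 1.90%, 1.24% and 2.58% in the row >3 cells. In the LI they had 2.12%, 2.42% and 2.13% in centre, 2.23%, 2.33% and 2.29% in border and 1.42%, 2.53% and 2.49% in the row >3 cells. SI replicate 3 was again high, and the lowest LI value, in row >3 replicate 1, lay within the range of SI replicates 1 and 2. In log2, the share in the SI over that in the LI was -0.04 in centre, -0.34 in border and -0.17 in the row >3 cells, against pooled SDs of 0.34, 0.42 and 0.50. Without SI replicate 3 these values were -0.35, -0.69 and -0.45.

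The tRNA genes gave a different order of libraries, with lower shares in the SI. In the SI, replicates 1, 2 and 3 had 10.3, 10.3 and 13.04 CPM in centre, 6.62, 6.28 and 11.8 CPM in border and 6.07, 4.22 and 14.8 CPM in row >3 cells. In the LI they had 15.2, 25.1 and 20.8 CPM in centre, 21.7, 19.6 and 19.5 CPM in border and 7.66, 21.4 and 19.99 CPM in row >3 cells. Here SI replicate 3 was below 8 of 9 LI libraries, and the exception was LI row >3 replicate 1. The groups did not overlap between the sites in centre and border cells and did so in row >3 cells through that library. The log2 ratio of group means, SI over LI, was -0.86, -1.30 and -0.97 in centre, border and row >3 cells, with pooled SDs of 0.29, 0.36 and 0.88. It was -0.98, -1.65 and -1.67 without SI replicate 3. Against centre cells of the same number, the tRNA share was lower in 3 of 3 pairs in SI border and in LI row >3 cells. The log2 differences were -0.64, -0.72 and -0.14 in SI border and -0.99, -0.23 and -0.055 in LI row >3 cells. In SI row >3 and in LI border cells the share was higher in 1 of 3 pairs.

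**Figure D2:**
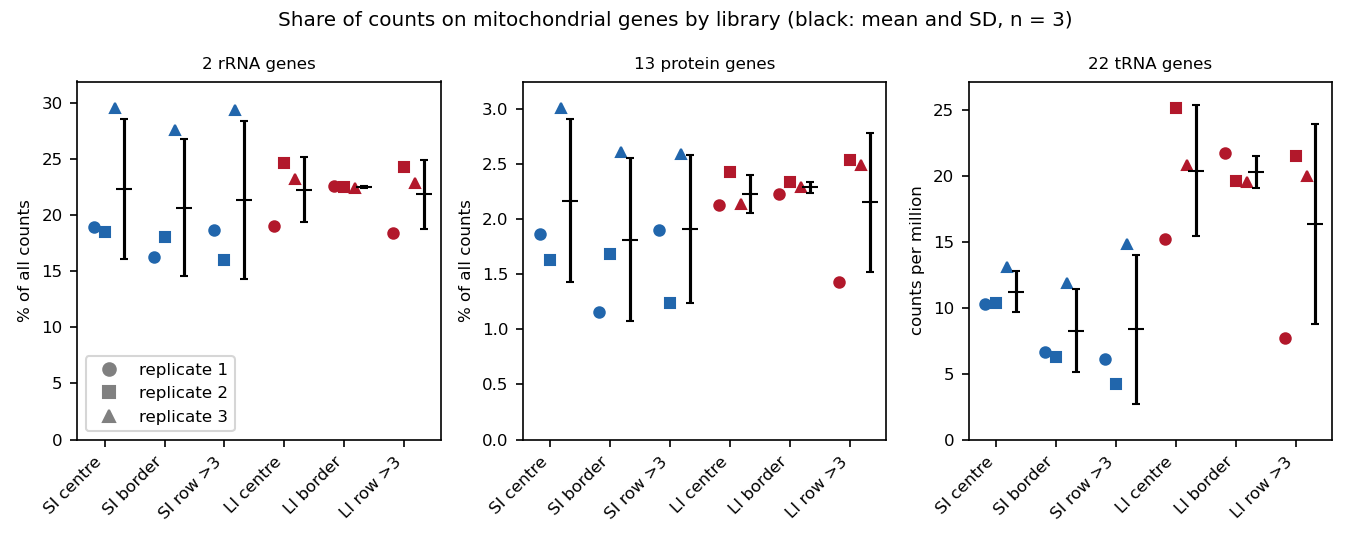
Share of counts on rRNA, protein (both in % of all counts) and tRNA genes (in CPM) by library, blue for the SI and red for the LI, with the replicate number as the symbol and the mean and SD of 3 libraries in black. The SI replicate 3 libraries (triangles) are the highest of all for rRNA, at 27.6% to 29.5%, but reach at most 14.8 CPM for tRNA, where 8 of 9 LI libraries lie at 15.2 CPM or above.

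Other abundant RNA was compared with these shares. The 3 nuclear non-coding genes of the largest share, Gm23935, Gm26917 and Yam1, took 7.35% to 16.6% of counts together, with 16.6% in SI border replicate 1 and 14.2% in LI row >3 replicate 1, the libraries with the lowest protein share in their site. SI replicate 3, with the highest rRNA share, had 10.99% to 11.7%, within the range of the other SI libraries. With these genes and the mitochondrial rRNA taken out of the total, the log2 ratio of tRNA shares between the sites was -0.80, -1.22 and -0.86, and that of protein shares 0.05, -0.26 and -0.10. The part of these RNAs in the shares was not tested.

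Between levels, no mitochondrial gene was called in the fit without a replicate block. Calls are genes with p under 0.05 in edgeR's quasi-likelihood test after Benjamini-Hochberg adjustment over 26717 genes, and 36 of the 37 mitochondrial genes were tested. In SI border against centre cells 0 of 36 were called, against 0.0112% of all genes, and 1 had an unadjusted p under 0.05. In SI row >3 against centre cells 0 of 36 were called, against 13.2% of all genes, and 0 had an unadjusted p under 0.05, where 23.9% of all genes did. In the LI, 0 were called for border against centre (0% of all genes) and 0 for row >3 against centre (0.0187%), with 0 at an unadjusted p under 0.05 in both. The differences of these changes between the sites gave 0 called (0% of all genes for border and 0% for row >3), with 0 at an unadjusted p under 0.05. DESeq2 called 0 mitochondrial genes in each of these comparisons, with 2 at an unadjusted p under 0.05 in SI border against centre and 0 in the others. Of all 26717 genes it called 209 in SI border, 4177 in SI row >3, 0 in LI border and 82 in LI row >3 against centre cells. For the differences between the sites it called 2 for border and 151 for row >3 cells. Without SI replicate 3, edgeR called 0 mitochondrial genes in SI border against centre (0.963% of all genes) and 0 in row >3 against centre (17.1%).

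In SI row >3 against centre cells, the log2 fold change was 0.09 (SE 0.39) for mt-Rnr1 and 0.15 (SE 0.34) for mt-Rnr2. The 13 protein genes lay between -0.60 and 0.22, with a median of -0.08, beside a median of 0 for all genes tested. This median turned to 0.09, with 10 of 13 genes above 0, when SI replicate 3 was left out. In SI border against centre all 13 protein genes had values below 0, from -1.13 (SE 0.57) in mt-Atp8 to -0.06 (SE 0.56) in mt-Co1, with a median of -0.38, where 38.7% of all genes tested lay above 0. mt-Atp8 had a mean of only 24.2 counts per library. Counts and medians over the protein genes, here and below, weigh all of them alike. They include the low genes mt-Nd3, mt-Atp6, mt-Co2, mt-Co3, mt-Atp8 and mt-Nd4l, with means of 16.9 to 656 counts. In SI border against centre, leaving out SI replicate 3 gave 12 of 13 below 0 and a median of -0.27. Over all alternatives the highest values were 0.48 in mt-Co1, 0.38 in mt-Nd4l and 0.009 to 0.15 in mt-Nd1, mt-Nd2, mt-Nd4, mt-Nd5, mt-Nd6 and mt-Cytb. The other protein genes stayed below 0 throughout. Within same-number pairs of the SI, the share of protein-gene counts changed by -0.69, 0.05 and -0.21 on the log2 scale in replicates 1, 2 and 3. In the LI, border cells had a median of 0.02 and row >3 cells a median of -0.02 over the protein genes.

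The lowest of these values in SI row >3 cells belonged to mt-Nd6 (chrM:13552-14070), the only protein gene on the light strand. Its level in replicates 1, 2 and 3 was 493, 430 and 950 CPM in SI centre cells, 295, 370 and 693 CPM in border cells and 302, 233 and 549 CPM in row >3 cells. Within each replicate number, row >3 cells were lower than centre cells, while across numbers the groups overlapped. The log2 fold change was -0.60 (SE 0.48, edgeR's adjusted p = 0.546). It ranged from -1.15 without SI row >3 replicate 3 to -0.03 without SI centre replicate 3. That equal replicate numbers pair libraries within a site is an assumption, since deviations from group means did not always set SI numbers 1 and 2 apart. SI centre replicate 1 correlated at 0.243 with border replicate 1 and at 0.388 with border replicate 2. For SI centre replicate 2 these values were 0.249 and 0.541. In a fit with a block for the number within each site mt-Nd6 fell by 0.59 on the log2 scale (SE 0.14, edgeR's adjusted p = 0.00496). It was the only mitochondrial gene called in that fit, which called 22.8% of all genes in SI row >3 against centre. In the LI the value with this block was -0.13 (SE 0.14, adjusted p = 0.909), and the difference between the sites was -0.46 (SE 0.20, adjusted p = 0.311), so a difference in the change of mt-Nd6 between SI and LI was not shown. For the other level comparisons this fit called 0 mitochondrial genes, with 5 at an unadjusted p under 0.05 in SI border (2.32% of all genes called), 0 in LI border (0%) and 0 in LI row >3 cells (2.59%).

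Since the level of all mitochondrial transcripts differs between libraries, the make-up of the protein-gene counts was also compared within each library. mt-Nd6 took 2.65%, 2.65% and 3.16% of these counts in SI centre cells of replicates 1, 2 and 3, 2.56%, 2.21% and 2.66% in border cells and 1.59%, 1.88% and 2.12% in row >3 cells. In SI the centre and row >3 libraries did not overlap in this measure. In the LI the shares were 2.95%, 2.09% and 2.14% in centre, 3.17%, 1.87% and 2.14% in border and 2.74%, 1.81% and 1.88% in the row >3 cells. Row >3 cells were lower than centre cells of the same number in 6 of 6 pairs, by 0.49 to 0.74 on the log2 scale in the SI and by 0.10 to 0.21 in the LI. This measure was chosen after its values were seen and was not tested. mt-Nd6 overlaps mt-Nd5 on the opposite strand by 14 bases, and the strand setting of the counting is not stated, so reads of antisense RNA cannot be told apart.

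Between the sites, the composition of the protein-gene counts set 6 SI libraries apart. mt-Co1 took 31.4% and 28.2% in SI centre, 29.5% and 29.2% in SI border and 30.7% and 28.4% in SI row >3 cells of replicates 1 and 2. It took 39.0% to 43.7% in all 9 LI libraries. The SI replicate 3 libraries had 34.8% in centre, 41.3% in border and 44.0% in the row >3 cells, so border and row >3 were within or above the range of the LI. mt-Cytb showed the opposite order, with 25.2% to 29.96% in SI replicates 1 and 2, 20.8% to 23.4% in the LI and 25.4%, 23.2% and 20.97% in SI replicate 3. Over these 3 libraries the share of mt-Co1 was ordered like the level of the 51 LI genes and that of mt-Cytb the opposite way. The part of cells of the LI in this was not tested. The complex I genes mt-Nd2, mt-Nd4 and mt-Nd5 also had higher shares in SI replicates 1 and 2 than in the LI without overlap, at 6.70% to 7.02% against 4.57% to 5.91%, 6.38% to 7.47% against 4.86% to 6.03% and 14.9% to 16.5% against 11.98% to 13.9%. The shares of mt-Nd1, at 10.1% to 11.5% against 9.30% to 11.6%, overlapped. Shares of the same sum are tied to each other, and a lower share of mt-Co1 raises the rest. In CPM, mt-Cytb, mt-Nd2, mt-Nd4 and mt-Nd5 overlapped between SI replicates 1 and 2 and the LI, for mt-Cytb with 3327 to 4866 against 3149 to 5678 CPM.

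**Figure D3:**
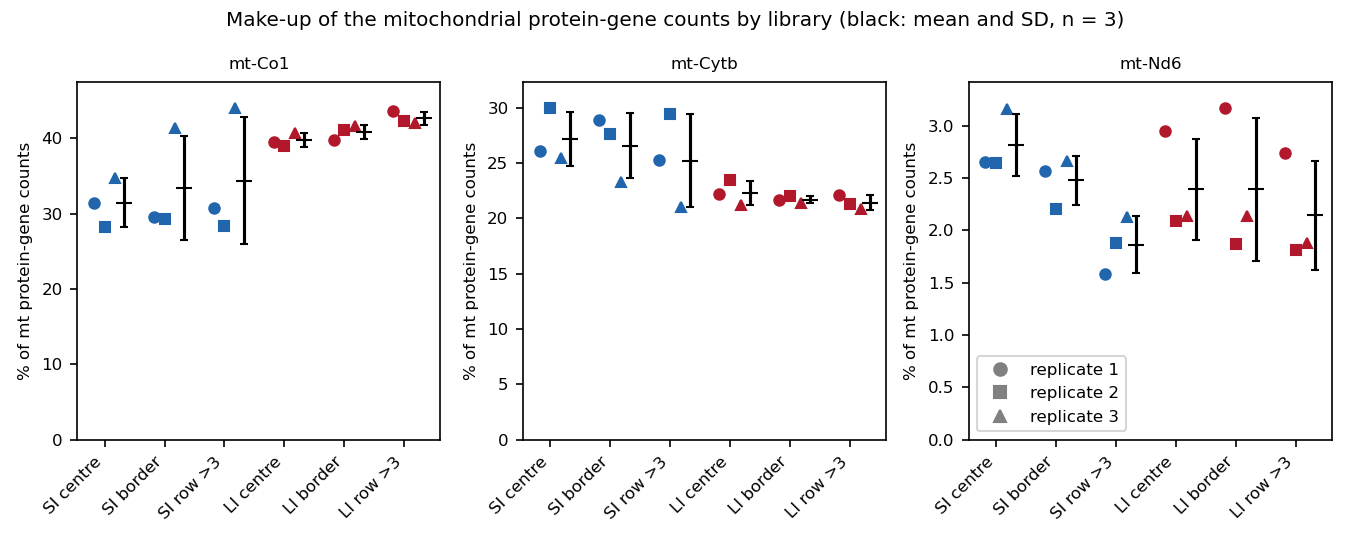
Percent of the counts on the 13 mitochondrial protein genes that fell on mt-Co1, mt-Cytb and mt-Nd6, by library, blue for the SI and red for the LI, with the replicate number as the symbol and the mean and SD of 3 libraries in black. For mt-Co1, SI replicates 1 and 2 lie at 28.2% to 31.4% and the LI at 39.0% to 43.7%. For mt-Nd6, SI libraries lie at 2.65% to 3.16% in centre and at 1.59% to 2.12% in row >3 cells.

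With all libraries, no rRNA or protein gene was called between SI and LI. edgeR called 0 of 36 mitochondrial genes in centre cells (1.99% of all genes), 0 in border cells (1.75%) and 1, the tRNA gene mt-Ta, in row >3 cells (4.09%), with 2, 1 and 3 at an unadjusted p under 0.05. DESeq2 called 0 in each, with 1, 1 and 2 at an unadjusted p under 0.05, where it called 1229, 1212 and 1682 of all 26717 genes. In the border comparison a block for the replicate number over all libraries called 0 mitochondrial genes, against 4.27% of all genes. Deviations of same-number border libraries correlated only weakly across the sites, at 0.148 to 0.163, so that equal numbers pair the sites is an assumption of this fit. mt-Rnr2 stood at 0.06 (SE 0.34), -0.01 (SE 0.34) and 0.12 (SE 0.34) on the log2 scale for SI over LI in centre, border and row >3 cells, and these values changed sign with the libraries or scaling used. Over the protein genes the medians were 0.23, -0.19 and 0.11.

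Without SI replicate 3, which leaves 2 SI libraries per group, 3 mitochondrial genes were called in border and 4 in the row >3 cells, all lower in the SI. Of these only mt-Ta in row >3 cells was also called with all libraries. In border cells mt-Co1 fell by 1.23 on the log2 scale (edgeR's adjusted p = 0.0106), mt-Nd6 fell by 0.77 (adjusted p = 0.00848) and mt-Rnr1 fell by 0.63 (adjusted p = 0.0499). In row >3 cells mt-Co1 fell by 0.91 (adjusted p = 0.0386), mt-Nd6 fell by 0.66 (adjusted p = 0.0168), and mt-Ta and mt-Tt were also called. In centre cells 0 were called, and mt-Co1 had a value of -0.83. These fits called 10.9%, 8.10% and 12.2% of all genes in centre, border and row >3 cells, and 6.39%, 4.40% and 5.36% of all genes were called lower in the SI. Of the 13 protein genes 13, 12 and 9 lay below 0, with medians of -0.23, -0.49 and -0.05, where 42.4%, 39.4% and 46.3% of all genes lay above 0. In levels, mt-Co1 had 3402 to 5842 CPM in SI replicates 1 and 2 against 6219 to 10705 CPM in the LI, and 10445, 10765 and 11379 CPM in SI replicate 3. SI replicates 1 and 2 thus lay below all LI libraries for this gene, while SI replicate 3 lay within or above the LI range.

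**Figure D4:**
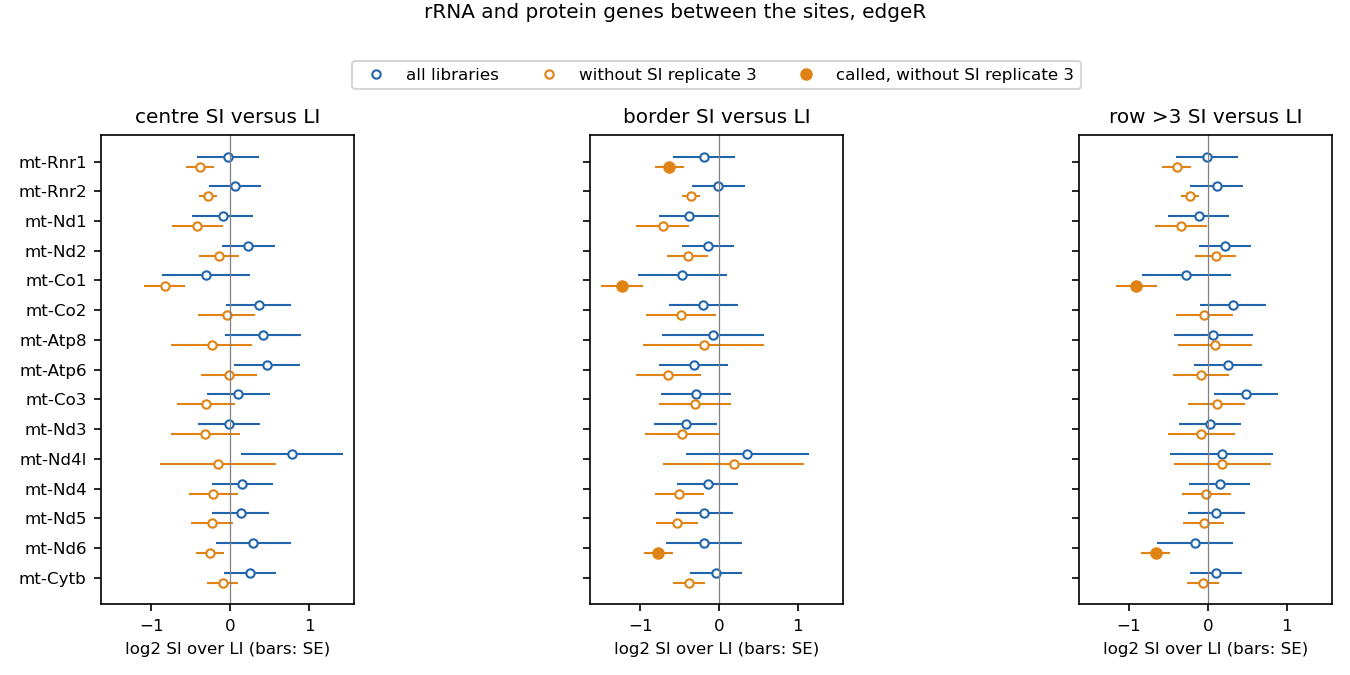
Log2 fold change of the 2 rRNA and 13 protein genes, SI over LI, in centre, border and row >3 cells, with the SE as bars, in edgeR's fit of all libraries (blue) and without the SI libraries of replicate 3 (orange). Filled symbols are called at an adjusted p under 0.05, which is reached only without SI replicate 3, by mt-Rnr1, mt-Co1 and mt-Nd6 in border cells (-0.63, -1.23 and -0.77) and by mt-Co1 and mt-Nd6 in row >3 cells (-0.91 and -0.66).

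With all libraries, mt-Ta was the only tRNA gene called between the sites, in row >3 cells. mt-Ta, the tRNA gene for alanine, rests on few counts and was named after its values were seen. It had 1, 1 and 2 counts in SI centre, 1, 2 and 3 in border and 0, 1 and 2 in the row >3 cells, against 11, 13 and 8, 7, 5 and 6, and 6, 10 and 16 in the LI groups. All 9 LI libraries were above all 9 SI libraries, also in CPM, and the gene had 13 counts in all SI libraries and 82 in all LI libraries. In row >3 cells edgeR gave a log2 fold change of -3.26 (SE 0.91, adjusted p = 0.0359), and by summed counts the LI level was 11.1-fold that of the SI, with a 95% exact interval for counting error of 3.47 to 56.6. In centre cells it was 8.11-fold (2.88 to 31.6), at an adjusted p of 0.0685 by edgeR, and in border cells 2.13-fold (0.809 to 6.55), at an adjusted p of 0.741. The call in row >3 cells was lost by DESeq2 (adjusted p = 0.0537) and without SI row >3 replicate 1 or 2 or LI row >3 replicate 2 or 3 (adjusted p = 0.0798 to 0.29).

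The abundant tRNA genes pointed the same way without passing the test. mt-Tp had 4.01 to 4.89 CPM in SI centre, 2.86 to 6.08 in border and 2.505 to 4.89 in row >3 cells, against 6.22 to 9.81, 7.64 to 10.6 and 1.56 to 7.78 CPM in the LI. The sites did not overlap in centre and border cells, and the lowest value of all was LI row >3 replicate 1. edgeR's log2 fold change was -0.96 (SE 0.44, adjusted p = 0.314) in centre and -0.93 (SE 0.46, adjusted p = 0.37) in border cells. mt-Ty had 1.20 to 2.37 CPM in SI border cells and 5.03 to 7.29 CPM in LI border cells, where edgeR gave -1.64 on the log2 scale (SE 0.74, adjusted p = 0.326), and the sites overlapped in centre and row >3 cells. mt-Tt had 0, 0 and 4 counts in SI row >3 cells and 4, 19 and 27 in LI row >3 cells. By summed counts its LI level was 13-fold that of the SI, with an exact 95% counting interval of 4.77 to 49.5 and edgeR's adjusted p of 0.159. Without SI replicate 3, where the SI had 0 counts, the LI level was at least 13.6-fold higher, taking 3 counts over the group as the limit, and edgeR's adjusted p was 0.0375. Of the 21 tRNA genes tested, 16, 17 and 17 lay below 0 for SI over LI in centre, border and row >3 cells, with medians of -0.66, -1.14 and -0.95. Of all genes tested, 42.6%, 38.4% and 43.6% lay above 0. The medians of the tRNA genes without SI replicate 3 were -0.97, -2.15 and -1.45.

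Nuclear genes that serve this genome were compared in the same way. A list of 66 genes for replication, transcription, RNA processing and biogenesis of mitochondria was counted, of which 65 were tested. In SI row >3 against centre cells 8 of 65 fell and 2 rose, against 5.82% and 7.35% of all genes tested, so the list as a whole was called at a share near that of all genes (13.2%). The median of the list was -0.29. The replication and nucleoid group held 5 of the 8, with 5 of 9 members called and a median of -0.74. Peo1, the mitochondrial helicase Twinkle, had 61.2, 53.7 and 46.9 CPM in SI centre and 21.8, 26.1 and 17.6 CPM in row >3 cells, and fell by 1.11 on the log2 scale (SE 0.17, edgeR's adjusted p = 0.000153). Mgme1, a nuclease of mitochondrial replication, fell by 1.26 (SE 0.26, adjusted p = 0.00226), and Ssbp1, the single-stranded DNA binding protein, fell by 0.92 (SE 0.20, adjusted p = 0.00384). Tfam, which packages and transcribes the genome and which was chosen after its values were seen, had 66.3, 72.7 and 49.6 CPM in centre and 33.1, 36.1 and 26.9 CPM in row >3 cells, and fell by 0.77 (SE 0.20, adjusted p = 0.012).

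Outside replication, Myc, a transcription factor that promotes growth and mitochondrial biogenesis, fell by 1.49 (SE 0.20, edgeR's adjusted p = 7.53e-05). It had 92.7, 71.9 and 73.1 CPM in SI centre and 23.3, 31.5 and 19.6 CPM in row >3 cells. Fastkd2, an RNA-binding protein of the mitochondrial matrix, fell by 1.24 (SE 0.30, adjusted p = 0.0076). Fastk, a relative of Fastkd2 that acts on mt-Nd6 mRNA, had a log2 fold change of 0.82 (SE 0.25, adjusted p = 0.0343) and Esrra, a nuclear receptor of mitochondrial genes, of 0.66 (SE 0.21, adjusted p = 0.0372), and both rose. Over 16 alternatives Myc, Peo1, Mgme1, Ssbp1 and Fastkd2 were called in 16, Tfam in 13, Fastk in 11 and Esrra and Grsf1 in 10, with adjusted p up to 0.241 for Fastk and 0.207 for Esrra. Both Fastk and Esrra lost their call without SI centre replicate 1 or 2 or SI row >3 replicate 3, and Esrra also without SI row >3 replicate 1. Tfam lost it without SI centre replicate 2 or SI row >3 replicate 1 or 3 (adjusted p = 0.0517 to 0.0637). The block within site called 16 lower and 3 higher of the list, against 10.5% and 12.4% of all genes tested.

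**Figure D5:**
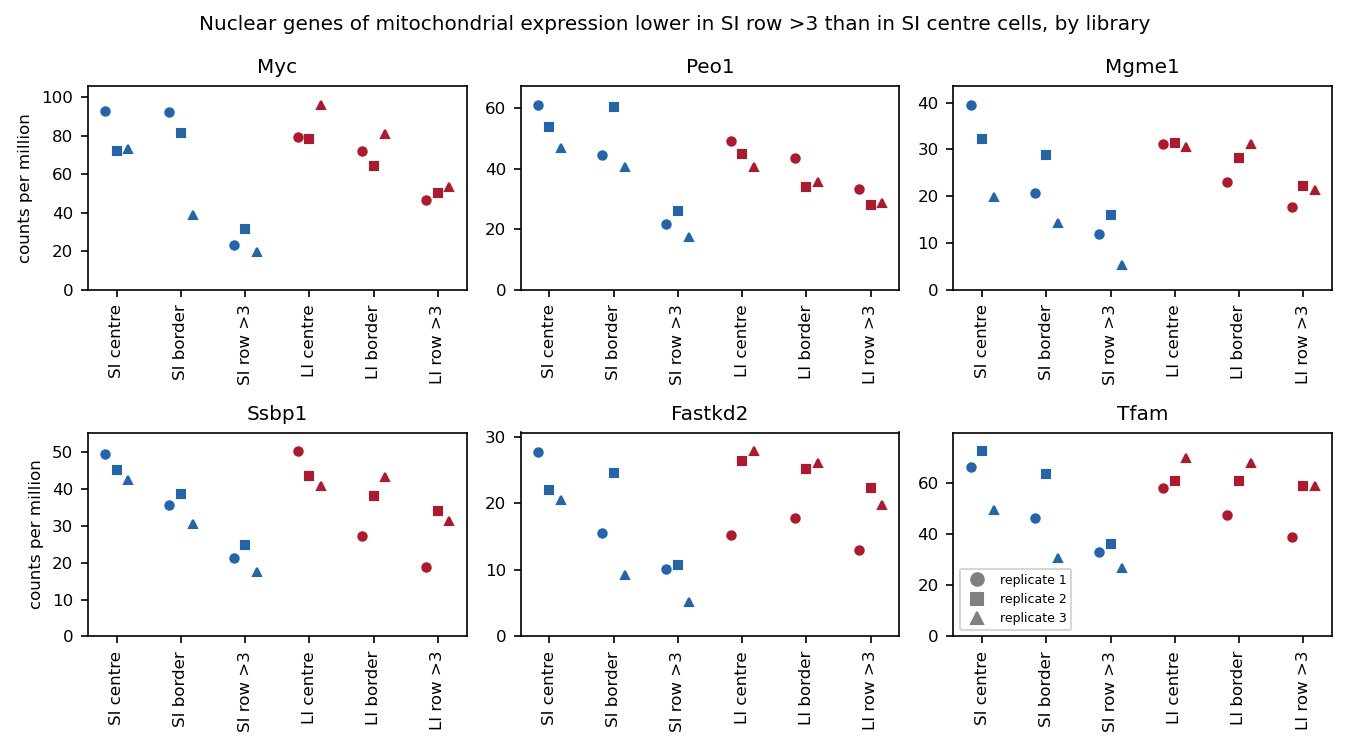
Level in CPM of 6 nuclear genes of mitochondrial expression that were lower in SI row >3 than in SI centre cells, by library, blue for the SI and red for the LI, with the replicate number as the symbol. The SI centre libraries lie at 71.9 to 92.7 and the SI row >3 libraries at 19.6 to 31.5 in Myc, and at 46.9 to 61.2 and 17.6 to 26.1 in Peo1.

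In LI row >3 against centre cells edgeR and DESeq2 called 0 of the list, with 10 at an unadjusted p under 0.05 in both. Over all genes edgeR called 0.0187% and DESeq2 82 of 26717. The block within site called 2 higher and 1 lower of 65 (2.59% of all genes). In the fit without a block the nucleoid group had a median of -0.37. The difference between the sites called 0 genes of the list, with 8 at an unadjusted p under 0.05 by edgeR and 7 by DESeq2, which also called 0. Over all genes edgeR called 0% and DESeq2 151 of 26717. For border against centre, 0 were called in each site, with 3 genes in the SI and 1 in the LI at an unadjusted p under 0.05 (DESeq2 0 called, with 2 and 1). Over all genes edgeR called 0.0112% and 0%, and DESeq2 209 and 0 of 26717, in SI and LI border cells. The block within site called 1 higher in SI border cells (2.32% of all genes) and 0 in LI border cells, with 9 and 2 at an unadjusted p under 0.05. Between the sites, Trmt10c, which helps to cut tRNAs from the precursor, was lower in the SI in centre (-0.82, SE 0.21, edgeR's adjusted p = 0.0454) and in row >3 cells (-0.75, SE 0.21, adjusted p = 0.0463). Both Trmt10c calls were lost when any single library of the groups compared was left out. In row >3 cells Fastkd3, which takes part in the handling of mitochondrial mRNA, fell by 1.24 (SE 0.31, adjusted p = 0.0235) and Myc by 0.95 (SE 0.20, adjusted p = 0.00744) in the SI against the LI. Fastkd3 lost its call without SI row >3 replicate 1 or 2 or LI row >3 replicate 2 or 3 (adjusted p = 0.0917 to 0.221), and Myc without SI row >3 replicate 1 (adjusted p = 0.0847) or LI row >3 replicate 3 (adjusted p = 0.0522). These are 1 and 3 of 65 genes, against 0.805% and 1.32% of all genes tested called lower in the SI. DESeq2 called 1 lower and 1 higher in centre and 6 lower in row >3 cells, where it called 1229 and 1682 of all 26717 genes in either direction. When SI replicate 3 was left out, edgeR called 2, 1 and 6 of the list lower in centre, border and row >3 cells, against 6.39%, 4.40% and 5.36% of all genes.

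Markers of stem cells and of several differentiated cell types moved with the levels beside these genes. Paneth and tuft cell markers changed in both directions in the SI. All 7 stem cell markers were found, and they summed to 7941, 7156 and 2413 CPM in SI centre and to 861, 1167 and 359 CPM in SI row >3 cells. All 6 goblet cell markers were found, and they summed to 802, 1343 and 9423 CPM in SI centre and to 46790, 34040 and 25740 CPM in SI row >3 cells. In the LI the goblet markers summed to between 6971 and 11560 CPM in centre and between 14700 and 23110 CPM in row >3 cells. The stem cell markers in the LI summed to between 1856 and 2052 CPM in centre and between 583 and 1121 CPM in row >3 cells. All 6 enteroendocrine markers were found, with sums in replicates 1, 2 and 3 of 51.4, 310.9 and 2.65 CPM in SI centre and 368.3, 581.4 and 31.3 CPM in SI row >3 cells. Those of 6 tuft cell markers were 30.1, 37.7 and 410.7 CPM against 341.8, 381.2 and 76.3 CPM, and those of 8 absorptive enterocyte markers 204.9, 62.4 and 197.4 CPM against 953.1, 204.7 and 738.8 CPM. The 6 Paneth cell markers summed to 1938, 8580 and 1741 CPM in SI centre and to 3000, 4578 and 176 CPM in SI row >3 cells. No stem, goblet or absorptive marker was at 0 in the SI libraries. Their part in the change of the nuclear genes or of mt-Nd6 was not tested.

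Nuclear-encoded subunits of the same complexes gave another comparison. Of 35 such genes, 34 lay above 0 in SI row >3 against centre cells and 35 in the LI, with medians of 0.37 and 0.35, where the 13 mitochondrial protein genes had medians of -0.08 and -0.02. Of all genes tested, 45% and 41.9% lay above 0 in these comparisons. The SI medians without SI replicate 3 were 0.27 for the nuclear genes, 29 of 35 above 0, and 0.09 for the mitochondrial protein genes. edgeR called 1 of the 35, Cox6a1 of complex IV (0.85, SE 0.24, adjusted p = 0.0239), in the SI, where 7.35% of all genes were called higher, a call lost without SI centre replicate 1 or 2 or SI row >3 replicate 3 (adjusted p = 0.081 to 0.194), and 0 in the LI, with 11 in the SI and 5 in the LI at an unadjusted p under 0.05 and with 3 and 0 called by DESeq2. Of all 26717 genes DESeq2 called 4177 in the SI and 82 in the LI, in either direction. With the replicate block within site edgeR called 17 in the SI and 5 in the LI, all higher in row >3 cells, against 12.4% and 1.28% of all genes. Between SI and LI, 0 of 35 lay above 0 in each of centre, border and row >3 cells, with medians of -0.56, -0.48 and -0.54, beside 0.23, -0.19 and 0.11 for the mitochondrial protein genes. Of all genes tested, 42.6%, 38.4% and 43.6% lay above 0. Without SI replicate 3 the medians were -0.55, -0.66 and -0.67 for the nuclear and -0.23, -0.49 and -0.05 for the mitochondrial protein genes. edgeR called Cox6a1 (-0.94, SE 0.24, adjusted p = 0.049) and Atp5b, the catalytic subunit of ATP synthase (-0.57, SE 0.15, adjusted p = 0.0449), in centre cells, with calls in 8 and 5 of 16 alternatives and adjusted p up to 0.246 and 0.226, where 0.805% of all genes were called lower in the SI, and 0 in border and row >3 cells, with 13 and 21 at an unadjusted p under 0.05 and 0 and 1 called by DESeq2. Of all 26717 genes DESeq2 called 1212 in border and 1682 in row >3 cells between the sites, in either direction. Without SI replicate 3 the calls lower in the SI were 7, 12 and 17 of 35 in centre, border and row >3 cells, against 6.39%, 4.40% and 5.36% of all genes tested. In border cells the block over all libraries, which assumes that equal replicate numbers pair the sites, called 12 of 35 lower, against 1.97% of all genes.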

How the data were processed

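The authors demultiplexed with bcl2fastq, trimmed the reads and used STAR for alignment to mm10, and their deposited raw count table per gene was used as it stands. Their deposited table of counts divided by DESeq2 size factors was not used, and no per-sample column of the count table was left out. Libraries came from at least 270 pg of RNA and a stranded SMART-Seq kit, read as pairs of 100 nt. Which annotation release, strand setting and rule for reads with several places were used is not given in the sources used here. Groups were taken from the sample labels.

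All 37 genes matched GENCODE M21 by identifier. Windows of 100 bases of each gene were searched in the M21 transcripts of nuclear genes, with copies of at least 50 bases listed. Genes with a mean count above 0 (26717) were tested in R 4.3.3 by edgeR 4.0.16 after TMM scaling, with a robust quasi-likelihood fit of 6 groups and 12 residual degrees of freedom. DESeq2 1.42.0, other scalings and filters, replicate blocks and left-out libraries were alternatives. The procedure was tested on simulated data. Of the list genes 1 symbol was not found. Deviations from group means correlated at 0.243 to 0.698 for 9 same-number pairs within the SI, 0.344 to 0.622 for 9 within the LI and -0.039 to 0.225 for 9 across sites, over 12955 genes. All pairs within a site and the 3 border pairs across sites were over 0.1. Different numbers could be as close, since SI border replicate 1 correlated at 0.429 with SI row >3 replicate 1 and at 0.454 with replicate 2. Different-number pairs that held 1 SI library of replicate 3 and another SI library lay at -0.661 to -0.316. Both rRNA and all protein genes were named, tRNA genes with a mean of at least 10 counts, and up to 5 list genes per comparison and direction. The genes described, the lists and the tests were chosen with earlier results of these data known. Figures were drawn with matplotlib 3.10.9.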

Additional observations from a re-analysis of the deposited data

How the results depend on the processing

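The number of mitochondrial genes called kept its value in 143 of 154 alternative fits over 9 comparisons. It became 1 (mt-Nd6) in SI row >3 against centre cells with the replicate block within site, 1 (mt-Ta) between the sites in centre cells with filterByExpr, and 3 in border and 4 in row >3 cells without the SI libraries of replicate 3. In row >3 cells between the sites it went from 1 to 0 with no filter, with the legacy quasi-likelihood fit (chosen after seeing the data) and with DESeq2, and to 0 to 1 with single libraries left out. The cause of these changes was not tested. The replicate block within site could not be fitted for comparisons between the sites, where a block over all libraries, chosen after seeing the data, changed no call of a mitochondrial gene. The log2 ratios of class shares moved by less than the pooled SD in 182 of 183 alternatives. The exception was the tRNA share of SI row >3 against centre cells, which was -0.42 and ranged from -1.12 to -0.10 with single libraries left out, with -1.12 without SI row >3 replicate 3. This limit is wide, at 0.29 to 0.88 between the sites, and SI replicate 3 is part of it. The shifts of the ratios between the sites without SI replicate 3, given above, all count as within it. It therefore does not show that these ratios are independent of those libraries.

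Uncalled values changed sign in 21 of 255 alternatives for mitochondrial genes. The value of mt-Rnr2 for SI over LI was -0.28 in centre and -0.23 in row >3 cells without the SI libraries of replicate 3, -0.006 in centre cells with the block over all libraries, and in border cells 0.001 with filterByExpr, 0.041 with RLE factors, 0.013 with TMM factors without abundant RNAs and 0.041 with DESeq2. With single libraries left out it ranged from -0.31 to 0.23 in centre, -0.40 to 0.16 in border and -0.27 to 0.32 in row >3 cells. mt-Nd6 was -0.25 in centre cells without SI replicate 3, and ranged from -0.28 to 0.54, -0.81 to 0.08 and -0.70 to 0.12 with single libraries left out. In the same way mt-Co1 ranged from -0.95 to 0.082 in row >3 cells and mt-Rnr1 from -0.67 to 0.055 in border cells. Named nuclear genes kept their direction in 272 alternatives and lost their call in 74. Depth limits the tRNA genes most, at 55 to 666 counts per library for all 22.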
